A study of Mus musculus with 16 samples.

Results

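MHC class I antigen presentation was followed here through 10 genes, H2-K1, H2-D1, H2-T22, H2-T23, H2-Q4, H2-Q7, B2m, Nlrc5, Tap1 and Psmb8, which were found by symbol among the 32285 genes of each file, every one of them once. Their unique molecular identifiers (UMIs, 1 per captured transcript) were summed per library and per class of nuclei, and levels are given per 1000000 UMIs of the class (CPM). The study sequenced nuclei from the hippocampus of 16 male mice, 1 animal and 1 library each, in 4 groups of 4. WT animals were C57BL/6J, and Ifnar1-/- animals were knockouts of Ifnar1, which encodes part of the type I interferon (IFN-I) receptor. Within each genotype, animals received either repeated injections of DMXAA, a small molecule that activates mouse STING, or vehicle, and tissue was taken a day after the last of them. WT mice were 2 months and 23 days old and Ifnar1-/- mice 3 months and 3 days old, so that genotype and age cannot be told apart. Because the nuclei were isolated and sorted by a DNA stain, the counts are of nuclear RNA.

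MHC class I molecules display peptides from inside the cell to CD8+ T cells. A heavy chain pairs with the light chain β2-microglobulin in the endoplasmic reticulum, where it is loaded with peptides cut by the proteasome and brought in by the TAP transporter. IFN-I and IFNγ raise the transcription of most genes of this route in part through the transactivator NLRC5. In the healthy brain, vessel cells and resident macrophages are known for class I expression, and neurons for low levels of it.

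Among the members, H2-K1 and H2-D1 encode the classical heavy chains that present peptides to CD8+ T cells. H2-T22, H2-T23, H2-Q4 and H2-Q7 encode nonclassical heavy chains, H2-T23 being Qa-1, a ligand of inhibitory receptors on natural killer cells, and H2-Q7 belonging to the Qa-2 molecules. B2m encodes the shared light chain. Nlrc5 encodes the transactivator of class I genes, Tap1 a subunit of the peptide transporter, and Psmb8 a catalytic subunit of the immunoproteasome. On GRCm38, the 6 heavy-chain genes lie on chromosome 17 together with Tap1 (34187553 to 34197225) and Psmb8 (34197721 to 34201454), which are neighbours, whereas B2m lies on chromosome 2 (122147686 to 122153083) and Nlrc5 on chromosome 8 (94434356 to 94527272). H2-K1 spans 33996017 to 34000347, H2-D1 35262730 to 35267499, H2-Q4 35379617 to 35385290, H2-Q7 35439155 to 35443773, H2-T23 36029773 to 36032855 and H2-T22 36037128 to 36042747. All 10 are annotated as protein coding. The heavy chains are near-identical in long stretches, so reads can be split between them or dropped, and values of single heavy chains are uncertain to that degree. Genes on the opposite strand overlap B2m, H2-Q4, H2-T22 and H2-T23.

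The starts of H2-K1, H2-Q7 and B2m are shown because these 3 members rose with DMXAA in WT libraries and carry interferon-response-type letters just before the gene. Each run holds 180 bases on the strand of the gene, ending at the base where the gene begins or the base before it, from RefSeq on GRCm38.p6. H2-K1 comes from chr17:34000348-34000527 (minus strand), H2-Q7 from chr17:35438975-35439154 (plus strand) and B2m from chr2:122147507-122147686 (plus strand). Capitals mark matches to GAANNGAAA or GAAANNGAA, the interferon-response type, read on either strand, and to GGGNNTTCC, the NF-kB type.
H2-K1: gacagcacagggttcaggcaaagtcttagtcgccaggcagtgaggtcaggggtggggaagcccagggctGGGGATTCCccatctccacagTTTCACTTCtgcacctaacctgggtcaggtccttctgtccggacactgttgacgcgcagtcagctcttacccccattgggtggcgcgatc
H2-Q7: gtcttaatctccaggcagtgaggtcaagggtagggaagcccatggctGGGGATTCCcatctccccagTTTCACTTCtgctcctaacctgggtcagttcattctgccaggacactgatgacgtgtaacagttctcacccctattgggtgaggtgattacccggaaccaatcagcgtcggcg
B2m: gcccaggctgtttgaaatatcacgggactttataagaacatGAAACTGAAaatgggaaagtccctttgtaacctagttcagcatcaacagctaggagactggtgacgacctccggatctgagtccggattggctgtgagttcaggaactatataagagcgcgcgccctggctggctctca
In H2-K1 and H2-Q7 the same NF-kB-type letters, GGGGATTCC, stand a short way before TTTCACTTC, which is the interferon-response type on the opposite strand. B2m carries GAAACTGAA and no match to GGGNNTTCC. Only this spelling of the NF-kB type was searched. Whether B2m carries NF-kB-type letters of another spelling or spacing was not tested.

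Of the 10 members, 9 had an entry among 32851 RefSeq promoters (Nlrc5 did not), and the 250 bases before each start were searched on both strands. Either interferon-response type was found for 7 of the 9, H2-K1, H2-D1, H2-Q4 and H2-Q7 with GAANNGAAA and B2m, H2-T22 and H2-T23 with GAAANNGAA, and in 12.5% of all promoters. GGGNNTTCC was found for H2-K1, H2-D1, H2-Q4 and H2-Q7 and in 4.98% of promoters. These matches describe letters only. H2-K1, H2-D1, H2-Q4 and H2-Q7 carry the same TTTCACTTC, after GGGATTTCC in H2-Q4 and GGGGATTCC in the others, at nearly the same spacing, so these 4 are not separate observations.

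After filtering, 111068 nuclei remained, 5267 to 9417 per library with 33081658 to 50619257 UMIs. Classes were rebuilt from marker genes and are called microglia-like and so on, written without the suffix from here. The 9 microglial markers summed to 6858 to 12604 CPM in microglia and to 25.3 to 121 CPM in excitatory neurons (ENs). At most 41 barcodes were shared by any 2 libraries. Ifnar1 itself was at 17.3 to 19.5 CPM in 7 of the 8 WT libraries and at 10.8 to 12.8 CPM in the Ifnar1-/- libraries. Reads near the end of the transcript need not cover the deleted part, so residual counts do not bear on the protein.

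One library went against its label. In it, labelled WT DMXAA 3, Ifnar1 was at 13.9 CPM over all nuclei, between the genotypes, and in microglia at 36.8 CPM, below the other WT libraries (44.4 to 81.8) and inside the Ifnar1-/- range (16.1 to 52.9). WT vehicle values of 47.6, 45.0 and 44.4 CPM also lay in that range, so Ifnar1 in microglia does not separate the genotypes. Malat1, an abundant RNA that stays in the nucleus, was at 24271 CPM, inside the Ifnar1-/- range of 12698 to 28014 and below the 54081 to 92439.6 of the other WT libraries. Over 5963 genes that differed between the vehicle groups, with all class I and interferon genes left out, its median position was 0.95 on a scale where 0 is WT vehicle and 1 is Ifnar1-/- vehicle, against -0.16 to 0.03 in the other WT libraries and 0.67 to 1.21 in Ifnar1-/- libraries. Yet its Nlrc5 level of 3.16 CPM over all nuclei was above the 0.583 to 1.60 of WT vehicle, the 0.393 to 1.26 of Ifnar1-/- vehicle and the 0.341 to 1.27 of Ifnar1-/- DMXAA. The counts of members called with DMXAA in WT are therefore given with and without it, and single genes mainly where a call changed.

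**Figure D1:**
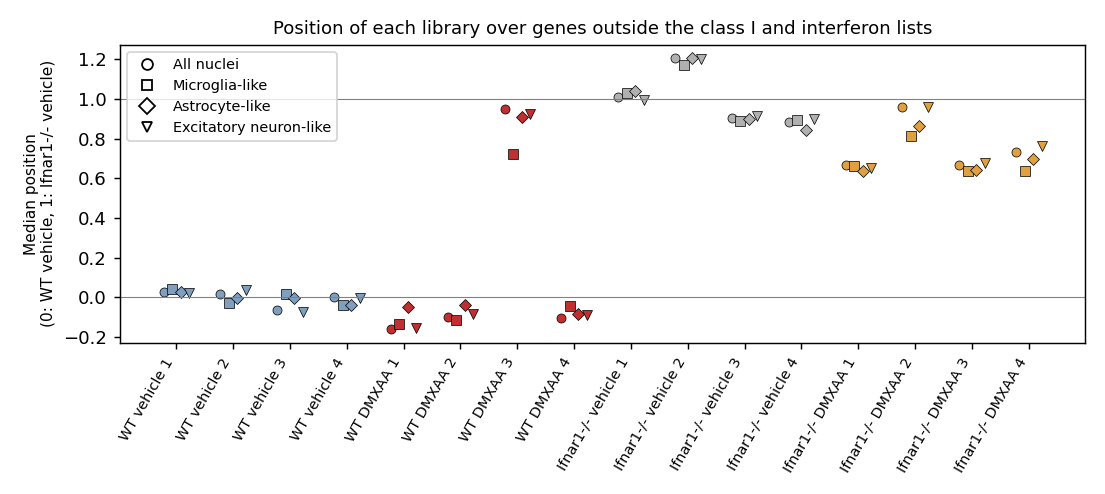
Median position of each of the 16 libraries (x axis) on a scale where 0 is the mean of WT vehicle and 1 the mean of Ifnar1-/- vehicle (y axis), 1 symbol per class, over genes outside the class I and interferon lists. The library labelled WT DMXAA 3 sits at 0.95 over all nuclei, while the other 3 WT DMXAA libraries sit between -0.16 and -0.10.

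Across the classes of WT vehicle libraries, the summed level of the 10 members had its highest mean in endothelial nuclei (1104 ± 642 CPM, SD, n = 4) and border macrophages (1077 ± 397), followed by microglia (329 ± 51.4). Fibroblasts were at 183 ± 31.6 CPM and mural nuclei at 156 ± 76.5. Ependymal nuclei (81.2 ± 36.7), choroid plexus (66.4 ± 14.4, n = 3), astrocytes (63.1 ± 6.46), oligodendrocyte precursors (OPCs, 58.5 ± 2.57) and Cajal-Retzius nuclei (41.3 ± 16.3) came next, then oligodendrocytes (29.4 ± 5.57), inhibitory neurons (20.1 ± 3.60) and ENs (17.5 ± 2.51). Neighbours in this order overlapped in their library ranges except border macrophages and microglia (722 to 1569.6 against 262 to 387) and microglia and fibroblasts (137 to 205). Endothelial and border macrophage values rest on few nuclei, 17 to 31 and 26 to 40 in each WT vehicle library, with 247 and 291 member UMIs over these 4 libraries. The endothelial mean rests on replicate 2, at 2042 CPM, the others being at 630.0 to 984. With Ifnar1-/- vehicle, border macrophages had the higher mean, 474 ± 219 CPM against 281 ± 79.1 in endothelial nuclei.

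**Figure D2:**
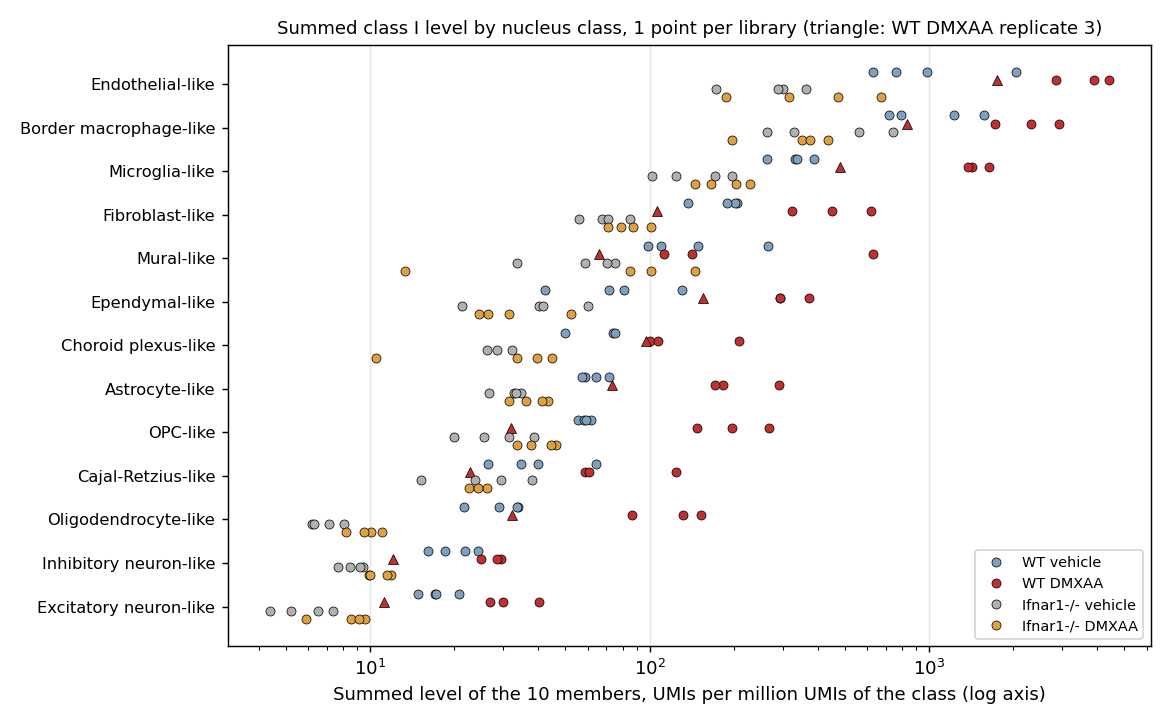
Summed level of the 10 members in CPM (x axis, log scale) by class of nuclei (y axis), 1 point per library, coloured by group, with a triangle for the library labelled WT DMXAA 3. In microglia, the WT DMXAA libraries sit between 482 and 1642 CPM, above all 4 WT vehicle libraries at 262 to 387, and the 2 Ifnar1-/- groups overlap.

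Single members were spread over the classes in different ways. Heavy chains H2-K1 and H2-D1 were at 55.9 ± 10.8 and 58.5 ± 10.4 CPM in WT vehicle microglia and at 0.842 ± 0.245 and 5.36 ± 0.714 in ENs. H2-T22 differed less between the 2 classes, with 16.5 ± 4.41 CPM in microglia and 4.80 ± 0.449 in ENs, and ENs gave 51.7% ± 3.20 of all its UMIs in WT vehicle libraries. ENs were 41.7% ± 1.98 of nuclei there and gave a larger share of the UMIs of all genes, such as 25333839 of 39882709 in WT vehicle replicate 1. By contrast, microglia, which were 4.43% ± 0.25 of nuclei, gave 15.8% ± 3.17 of the UMIs of the 10 members together and ENs 32.1% ± 2.53.

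In the sum of all nuclei of WT mice, DMXAA raised 7 of the 10 members, the light chain, both classical heavy chains, H2-Q4, H2-Q7, Nlrc5 and Tap1, in edgeR's quasi-likelihood test with Benjamini-Hochberg adjustment over all genes. Of all 20144 genes tested, 0.516% were called by the same rule (adjusted p under 0.05 and a log2 fold change over 0.1 either way). With the 8 WT libraries fitted alone, edgeR called 0 of the 10 and 0.106% of genes, 8 members had an unadjusted p under 0.05, and DESeq2 was not run on these libraries alone. The median log2 fold change was 1.47 over the 10 members and 0.01 over all genes. In a sum over nuclei, fewer cells of a type and less RNA per cell cannot be told apart. Microglia made up 4.43% ± 0.25 of nuclei with vehicle and 4.96% ± 0.55 with DMXAA (exact permutation test, 2-sided, n = 4 against 4, p = 0.114). Malat1 over all nuclei was at 54081 to 71798 CPM with WT vehicle and at 92439.6, 89366, 24271 and 76085 with WT DMXAA, above the vehicle range in all but the library labelled WT DMXAA 3, and its part in the results was not tested.

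B2m, the light chain that every class I molecule needs, was at 6.27, 5.75, 8.80 and 7.58 CPM in the WT vehicle libraries and 18.95, 15.1, 9.68 and 17.97 with DMXAA. Among the treated, the library labelled WT DMXAA 3 was lowest, and all 4 were above every vehicle library (log2 fold change 1.16 ± 0.16 SE, edgeR adjusted p = 0.0012). H2-K1 was at 4.81, 7.005, 7.91 and 6.34 CPM with vehicle and 23.1, 21.5, 8.28 and 23.7 with DMXAA. The same library lay just above the vehicle range, far from the other 3 (1.57 ± 0.20, edgeR adjusted p = 0.000687). H2-D1 was at 7.25, 9.41, 9.14 and 8.55 CPM with vehicle and 26.9, 29.4, 6.16 and 27.6 with DMXAA. Here that library lay below all vehicle libraries while the other 3 were above them (1.38 ± 0.29, edgeR adjusted p = 0.0395).

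Nlrc5, the class I transactivator, was at 1.60, 1.56, 1.45 and 0.583 CPM with vehicle and 12.5, 5.34, 3.16 and 5.999 with DMXAA in WT, groups without overlap (2.41 ± 0.44, edgeR adjusted p = 0.015). Tap1 was at 0.777, 1.28, 1.21 and 1.02 CPM with vehicle and 4.94, 2.38, 2.17 and 2.67 with DMXAA. It rose by 1.56 ± 0.28 on the log2 scale (edgeR adjusted p = 0.0127), again without overlap. For the nonclassical chains, H2-Q4 went from 0.451, 0.818, 0.670 and 0.413 to 2.59, 2.19, 1.13 and 1.95 CPM (1.77 ± 0.27, edgeR adjusted p = 0.00311). H2-Q7 went from 0.0501, 0.205, 0.375 and 0.194 to 1.75, 1.31, 0.652 and 1.92 CPM (2.78 ± 0.39, edgeR adjusted p = 0.00144). In both, every treated library was above every vehicle library. H2-Q7 passed the filter on low counts only through WT DMXAA, so its call is not separate support.

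The other 3 members missed the threshold. H2-T23 had a log2 fold change of 1.33 ± 0.37 (edgeR adjusted p = 0.265), with DMXAA values of 15.4, 8.31, 1.72 and 7.86 CPM against 3.13, 2.61, 3.38 and 3.99 with vehicle. Psmb8, the immunoproteasome subunit, had 0.93 ± 0.37 (edgeR adjusted p = 0.784) and H2-T22 0.39 ± 0.20 (edgeR adjusted p = 0.994). In all 3 the library labelled WT DMXAA 3 lay below the lowest vehicle library. Without it, all 10 members were called in WT, where 1.72% of genes were, and the log2 fold changes of H2-T23, Psmb8 and H2-T22 were 1.64 ± 0.23, 1.24 ± 0.23 and 0.58 ± 0.13 (edgeR adjusted p = 0.000816, 0.011 and 0.034). Leaving out WT vehicle replicate 4 instead, 4 members were called, B2m, H2-K1, H2-Q4 and H2-Q7, and 0.329% of genes.

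Within microglia of WT mice, 6 of the 9 members that passed the filter on low counts were called with DMXAA, all higher: H2-K1, H2-D1, H2-Q4, B2m, Nlrc5 and Tap1. The background was 1.75% of 9187 genes. With the WT libraries fitted alone, 3 of the 9 were called and 0.635% of genes. The median log2 fold change was 1.65 over the 9 members and 0.02 over all genes tested. H2-Q7 was left out by the filter. Of the 6 called, Nlrc5, H2-Q4 and Tap1 passed it only through WT DMXAA, so their calls are not separate support. Each library gave 225 to 430 microglial nuclei with 398028 to 923659 UMIs.

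H2-K1 in WT microglia was at 67.6, 45.2, 48.2 and 62.5 CPM with vehicle and 342, 371, 105 and 376 with DMXAA. All treated libraries exceeded all vehicle libraries, 3 of them by far and the library labelled WT DMXAA 3 by little (2.41 ± 0.29 on the log2 scale, edgeR adjusted p = 0.000206). H2-D1 was at 53.8, 46.8, 62.7 and 70.8 CPM with vehicle and 334, 371, 46.6 and 341 with DMXAA. That library lay just below the vehicle range and the other 3 above it (2.21 ± 0.43, edgeR adjusted p = 0.00941). B2m was at 106, 78.00, 124 and 155 CPM with vehicle and 317, 286, 161 and 297 with DMXAA (1.21 ± 0.25, edgeR adjusted p = 0.0132). The groups did not overlap, though the lowest treated and the highest vehicle library were close.

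Nlrc5 gave the largest fold change of the 6. It was at 7.68, 7.80, 6.43 and 2.78 CPM in WT vehicle microglia, 16 UMIs in all, and at 218, 111, 73.6 and 92.9 with DMXAA, 371 UMIs (4.31 ± 0.42, edgeR adjusted p = 1.90e-05). Unlike H2-D1, it was above the vehicle range in all 4 treated libraries. Tap1 was at 18.4, 9.36, 24.1 and 12.5 CPM with vehicle and 83.1, 48.5, 27.1 and 42.5 with DMXAA (1.65 ± 0.33, edgeR adjusted p = 0.0131). H2-Q4 was at 10.8, 9.36, 1.61 and 5.55 CPM with vehicle and 58.5, 54.5, 20.6 and 43.8 with DMXAA (2.66 ± 0.42, edgeR adjusted p = 0.00216). Neither gene's groups overlapped.

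H2-T23, which encodes Qa-1, was at 29.2, 31.2, 30.5 and 52.7 CPM in WT vehicle microglia and 165, 103, 19.5 and 99.5 with DMXAA, with the library labelled WT DMXAA 3 below the vehicle range (1.41 ± 0.45, edgeR adjusted p = 0.177). H2-T22 (46.3, 31.8, 14.1 and 22.6 CPM with DMXAA against 12.5 to 22.5) and Psmb8 (34.04, 30.3, 4.33 and 26.5 against 11.1 to 19.98) overlapped between the groups, with log2 fold changes of 0.80 ± 0.40 and 0.55 ± 0.50 (edgeR adjusted p = 0.561 and 0.82). H2-Q7 was at 1.54, 3.12, 0 and 1.39 CPM with vehicle, 4 UMIs in all, and at 44.9, 22.7, 9.74 and 33.2 with DMXAA, and its groups did not overlap. Its exact permutation p was 0.0286, the smallest that 4 against 4 libraries allow, and 0.220 after adjustment over the 54 tests of members below the filter. The adjusted value could pass only if most of the 54 tests were at that floor, so it decides nothing.

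In microglia of the library labelled WT DMXAA 3, Nlrc5, Tap1, H2-Q4, H2-Q7, B2m and H2-K1 were above the WT vehicle range, while H2-D1, H2-T23 and Psmb8 were below that range, H2-D1 by little, and H2-T22 inside it. Without that library, 8 of 10 members were called in WT microglia, now with H2-T23 (1.75 ± 0.26) and H2-Q7 (4.29 ± 0.56), in a background of 7.12% (edgeR adjusted p = 4.45e-05 and 2.84e-05). H2-Q7 passed the filter only then, through WT DMXAA, at 33, 15 and 25 UMIs against 1, 2, 0 and 1 with WT vehicle. Its call is therefore not separate support. H2-T22 and Psmb8 were still not called (edgeR adjusted p = 0.0862 and 0.142). The summed level in WT DMXAA microglia was 1232 ± 513 CPM with that library and 1482 ± 141 without it.

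In WT microglia, the 8 border macrophage markers summed to 256 to 323 CPM with vehicle and 208 to 340 with DMXAA, with Pf4 at 0 in all 16 libraries. The 8 lymphocyte markers summed to 0 to 4.61 CPM with vehicle and 0 to 7.58 with DMXAA, with Cd3d, Cd3e, Cd8a and Cd79a at 0. The 9 microglial markers were at 10723 to 11363 CPM with vehicle and 6858 to 10754 with DMXAA, lowest in the library labelled WT DMXAA 3. In Ifnar1-/- microglia, border macrophage markers summed to 217 to 326 CPM with vehicle and 332 to 371 with DMXAA, without overlap. Lymphocyte and microglial markers overlapped there. The part of these markers in the results of either genotype was not tested.

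**Figure D3:**
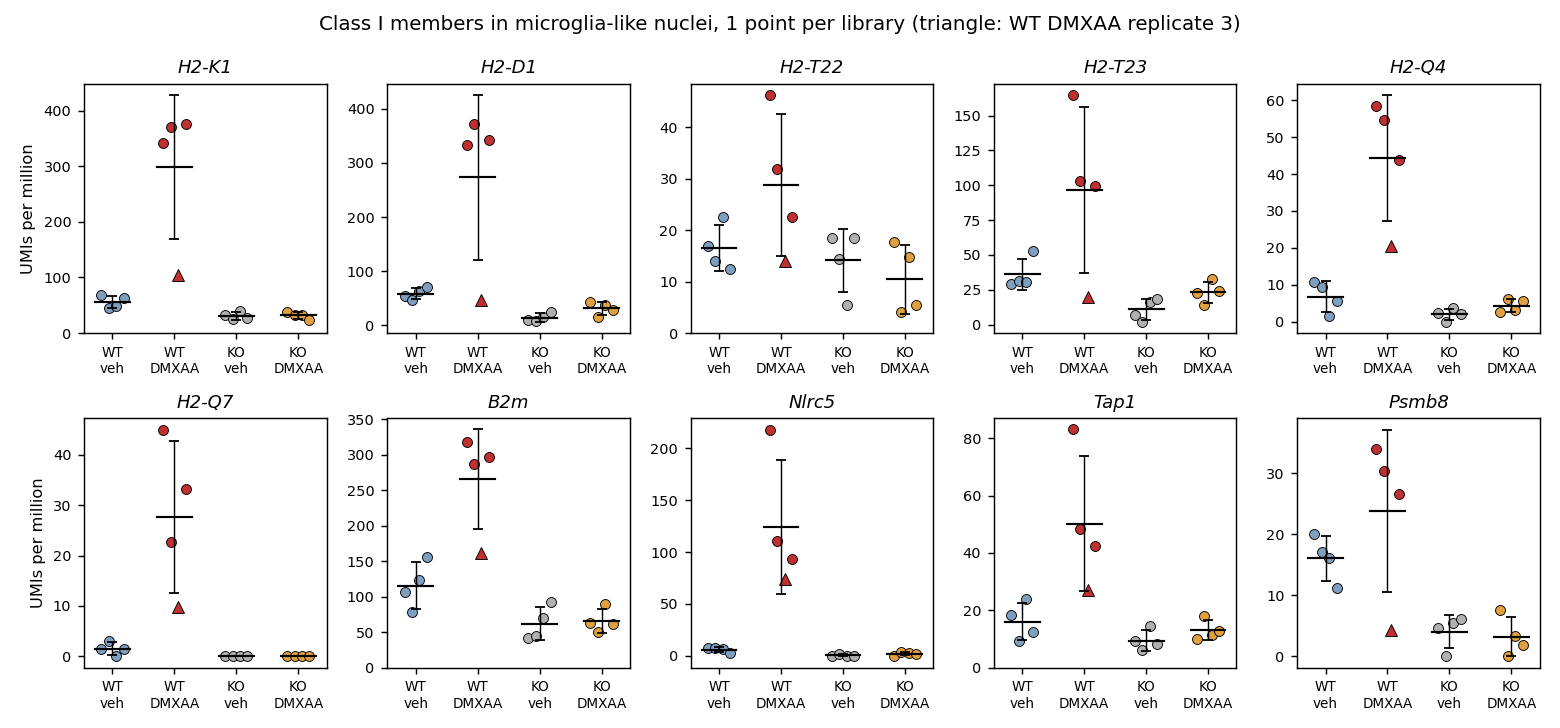
Level of each of the 10 members in microglia (y axis, CPM) in the 4 groups (x axis, KO: Ifnar1-/-, veh: vehicle), 1 point per library, with the mean as a line and the SD as a bar. A triangle marks the library labelled WT DMXAA 3, which for H2-D1 is at 46.6 CPM while the other 3 WT DMXAA libraries are at 334 to 371.

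In Ifnar1-/- mice, no member was called with DMXAA. Over 15 classes and regions with a fit, 0 of 69 member tests passed in edgeR, 5 had an unadjusted p under 0.05, and DESeq2 called 0 in the 6 classes it was run on. The background was 0% as well, since edgeR called none of all genes in Ifnar1-/- in each of these 15 fits. In microglia H2-K1 was at 32.2, 24.6, 39.6 and 26.6 CPM with vehicle and 37.7, 32.2, 32.7 and 23.7 with DMXAA, ranges that overlap (-0.02 ± 0.36, edgeR adjusted p = 0.998). H2-D1 was at 9.20, 8.18, 16.2 and 24.6 CPM with vehicle and 42.7, 16.1, 37.6 and 29.2 with DMXAA, also overlapping (1.04 ± 0.59, edgeR adjusted p = 0.828). B2m was at 41.4, 45.01, 70.2 and 92.1 CPM with vehicle and 62.8, 50.3, 89.9 and 62.04 with DMXAA, the treated range lying inside the vehicle range. H2-Q7 had no UMI in any of the 8 Ifnar1-/- microglial sums, and Nlrc5 had 1 UMI with vehicle and 5 with DMXAA.

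Of all genes, 1149 of 20144 in all nuclei and 968 of 17588 in ENs had an unadjusted p under 0.05 in Ifnar1-/-. That is near the share among the 69 member tests. The 5 member tests under it were all upward. They were H2-D1 in all nuclei (0.70 ± 0.30 on the log2 scale, edgeR adjusted p = 0.777), H2-K1 in ENs (1.21 ± 0.46, edgeR adjusted p = 0.784) and in dentate gyrus ENs, and H2-D1 and H2-T23 in ENs of deep cortical layers. H2-D1 over all nuclei was at 2.48, 1.65, 2.81 and 3.004 CPM with vehicle and 4.46, 2.98, 5.16 and 4.40 with DMXAA, and the lowest treated library overlapped with the vehicle range. Malat1 in the same libraries was at 15247, 12698, 19809 and 20304 CPM with vehicle and 27727, 17799.9, 25705 and 28014 with DMXAA, also with only the lowest treated library in the vehicle range, and its part was not tested. Lymphocyte markers there summed to 12.6 to 14.2 CPM with vehicle and 16.5 to 17.6 with DMXAA, and microglial markers to 182 to 202 and 206 to 266. Border macrophage and endothelial markers overlapped, and the part of these markers was not tested. A p that misses the threshold leaves a change of the size given for H2-D1 possible.

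The library labelled WT DMXAA 3 also enters the Ifnar1-/- tests, through the estimate of spread that all 4 groups share. Without it, edgeR called 1.37% of genes in Ifnar1-/- microglia and 0.646% in astrocytes with DMXAA and again none of the members, in 47 tests over 6 classes. It called 0 of 20428 genes in all nuclei, 0 of 17751 in ENs, 14 of 10159 in OPCs and 1 of 12287 in oligodendrocytes. An unadjusted p under 0.05 was reached by 11 of the 47 member tests, all upward and all of H2-D1, H2-K1 or H2-T23, and DESeq2 was not run without this library. In the other 9 classes and regions, edgeR then called 0 of 32 member tests, 6 with an unadjusted p under 0.05, where 0% to 1.48% of genes were called. Of these 6, B2m in border macrophages was downward (-1.20 ± 0.56) and the rest upward. The share of all genes under that unadjusted p was not counted in fits without this library. The 11 and the 6 therefore stand without a background. All nuclei include the other classes, so the tests are not separate results. H2-D1 had log2 fold changes of 0.69 ± 0.15 in all nuclei, 1.03 ± 0.32 in microglia and 1.14 ± 0.31 in astrocytes (edgeR adjusted p = 0.106, 0.115 and 0.0843).

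Whether the DMXAA effect differed between genotypes was tested as an interaction. In all nuclei edgeR called 0 of 10 members. An unadjusted p under 0.05 was reached by 6 of them and by 1377 of all 20144 genes. The edgeR background of calls was 0.0546% of genes. DESeq2 called 5, and 0.408% of the 28678 genes it was given. With relative log expression size factors edgeR called 1 member and 0.0745% of genes, and with all deposited barcodes 1 and 0.0554%. In microglia H2-K1 alone was called among 9 members, with a difference of 2.43 ± 0.46 log2 units (edgeR adjusted p = 0.0405), in a background of 0.163%. No member was called in microglia when any 1 of 14 libraries was left out, the exceptions being those labelled WT DMXAA 3 and 4, while the difference in H2-K1 stayed at 2.28 to 2.72 log2 units over all 16 omissions. Without the library labelled WT DMXAA 3, H2-K1 (2.72 ± 0.29) and B2m (1.31 ± 0.31) were called in microglia, in a background of 0.706%, and B2m, H2-K1 and H2-Q4 in all nuclei (1.34, 1.41 and 2.19), in one of 0.215%. In the edgeR fits with and without that library, a change of the other members past the threshold in WT and not in Ifnar1-/- is not shown to differ between genotypes. The methods disagree here, since DESeq2 called 5 members in all nuclei.

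**Figure D4:**
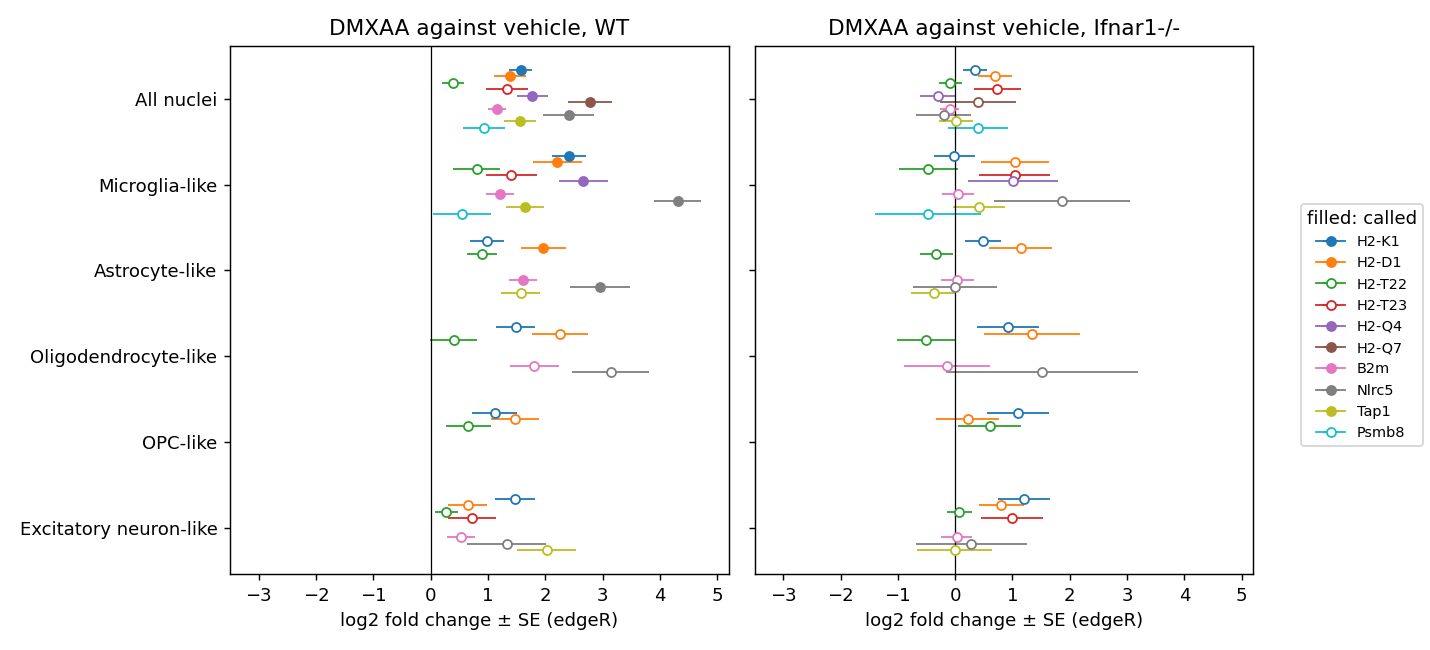
Log2 fold change of each member with DMXAA against vehicle (x axis, with SE) by class (y axis), in WT on the left and Ifnar1-/- on the right, filled where called by edgeR. Filled points are found only in WT, 7 in all nuclei, 6 in microglia and 3 in astrocytes.

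In astrocytes of WT mice, DMXAA raised 3 of the 6 members that passed the filter, B2m, H2-D1 and Nlrc5, in a background of 0.27% of genes. With the WT libraries fitted alone, edgeR called 0 of the 6 and 0.0403% of genes, although all 6 had an unadjusted p under 0.05. DESeq2, run on all libraries, called 5 members and 0.278% of genes. B2m was at 7.76, 7.38, 11.2 and 8.64 CPM with vehicle and 38.3, 22.6, 15.9 and 24.7 with DMXAA (1.61 ± 0.25, edgeR adjusted p = 0.00501), without overlap. H2-D1 was at 6.79, 7.38, 6.58 and 7.75 CPM with vehicle and 33.7, 36.4, 5.04 and 31.9 with DMXAA (1.97 ± 0.40, edgeR adjusted p = 0.0468). As in microglia, the library labelled WT DMXAA 3 was below the vehicle range and the other 3 above it. Nlrc5 was at 9.21, 1.64, 2.32 and 1.79 CPM with vehicle and 54.2, 21.7, 14.3 and 14.1 with DMXAA (2.95 ± 0.52, edgeR adjusted p = 0.0157), without overlap. It passed the filter only through WT DMXAA, so its call is not separate support. H2-K1 (0.98 ± 0.30), Tap1 (1.57 ± 0.35) and H2-T22 (0.90 ± 0.26) were not called (edgeR adjusted p = 0.392, 0.0836 and 0.354).

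H2-K1 in WT astrocytes was at 22.8, 25.8, 38.7 and 26.5 CPM with vehicle and 82.3, 54.4, 16.7 and 61.1 with DMXAA, where only the library labelled WT DMXAA 3 lay below the vehicle range. Without it, all 8 members that passed the filter were called, in a background of 1.2% of genes. The members outside the 6 above were H2-T23 and H2-Q4. H2-T23 was at 5, 3, 2 and 3 UMIs with WT vehicle and 53, 36 and 31 in the treated libraries left. H2-Q4 was at 3, 2, 3 and 0 UMIs with WT vehicle and 13, 9 and 11 in those treated libraries. Both passed the filter through WT DMXAA, so their calls are not separate support. Without WT vehicle replicate 2, 3 or 4, 1 member was called, in backgrounds of 0.147%, 0.155% and 0.134%. The summed astrocyte level went from 63.1 ± 6.46 CPM with WT vehicle to 179 ± 88.5 with DMXAA, or to 215 ± 65.4 without that library. In Ifnar1-/- it was 31.8 ± 3.53 and 38.01 ± 5.26. Microglial markers in WT astrocytes summed to 103 to 139 CPM with vehicle and 82.6 to 129 with DMXAA. Endothelial markers there were at 3.58 to 10.7 and 8.53 to 16.9 CPM, and border macrophage markers at 5.66 to 6.97 and 6.13 to 13.4. The part of these markers in the astrocyte values was not tested.

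**Figure D5:**
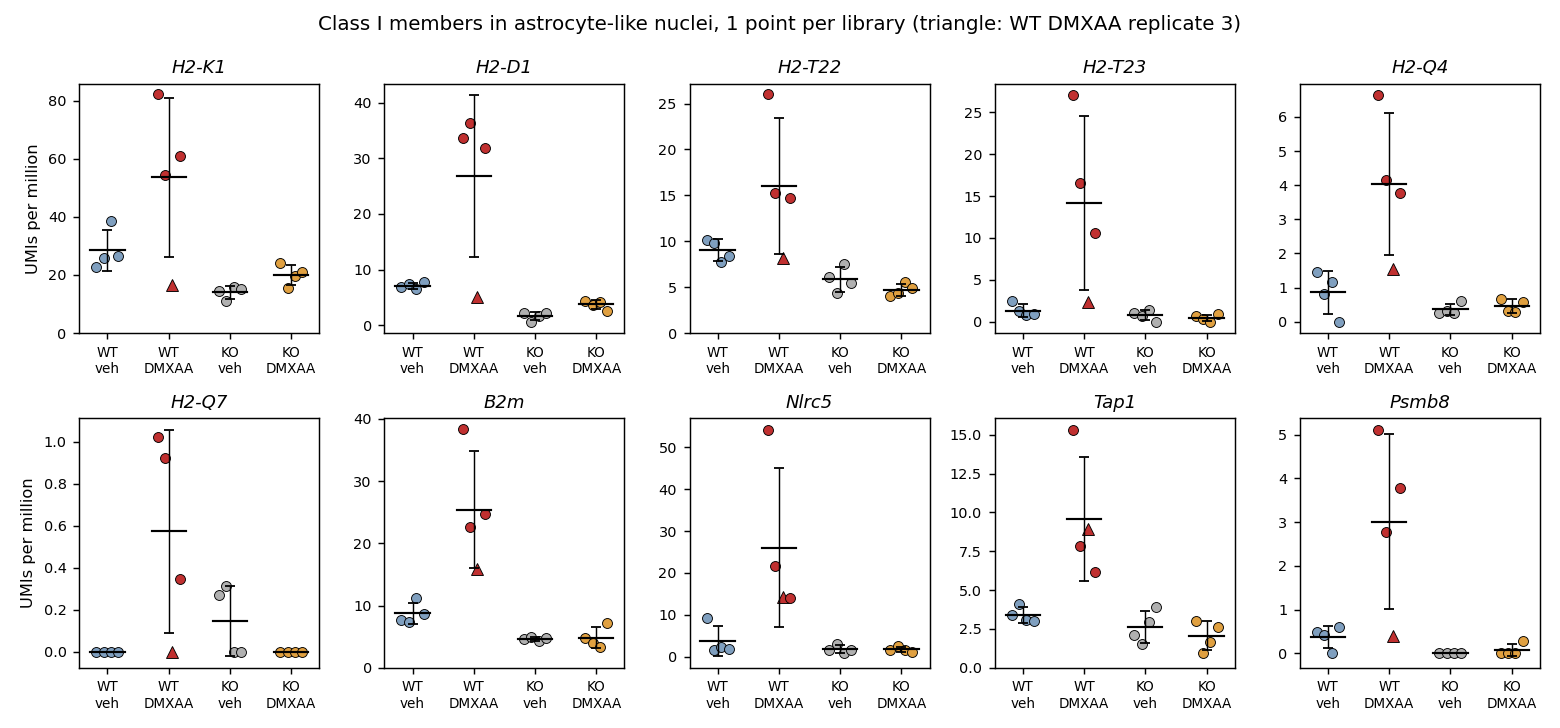
Level of each of the 10 members in astrocytes (y axis, CPM) in the 4 groups (x axis, KO: Ifnar1-/-, veh: vehicle), 1 point per library, with the mean as a line and the SD as a bar. The library labelled WT DMXAA 3 (triangle) is at 5.04 CPM for H2-D1, below the other 3 WT DMXAA libraries.

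With all libraries and the filter on low counts, the oligodendrocyte lineage gave no calls. In oligodendrocytes 0 of 5 members were called in WT by edgeR, 4 had an unadjusted p under 0.05 and DESeq2 called 0, in backgrounds of 0.0412% in edgeR and 0.0544% in DESeq2. H2-D1 there went from 4.73, 12.6, 6.88 and 6.65 to 30.7, 61.5, 7.81 and 36.8 CPM, with the library labelled WT DMXAA 3 inside the vehicle range (2.26 ± 0.48, edgeR adjusted p = 0.173). In OPCs 0 of 3 were called by edgeR, 2 had an unadjusted p under 0.05 and DESeq2 called 0, in backgrounds of 0.182% and 0.0997%. Without the filter on low counts, 4 members were called in WT OPCs and 0.435% of genes. Without that library, 5 of 6 members were called in oligodendrocytes (background 2.68%) and 5 of 6 in OPCs (background 0.709%). These sets are unlike those above, since H2-T23 in oligodendrocytes and Nlrc5, H2-T23 and B2m in OPCs passed the filter only without it. They were let in mainly through WT DMXAA, as was Nlrc5 in oligodendrocytes with all libraries. B2m in OPCs was at 4, 3, 6 and 6 UMIs with WT vehicle and 31, 22 and 10 in the treated libraries left. Nlrc5 in OPCs was at 1, 0, 0 and 2 UMIs with WT vehicle and 32, 12 and 12 in the treated libraries left. Calls of members let in by the group in which they were high are not separate support. Summed levels in oligodendrocytes were 29.4 ± 5.57 CPM with WT vehicle, 101 ± 53.6 with WT DMXAA and 124 ± 33.9 without that library.

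In ENs 0 of 7 members were called in WT by edgeR, 3 had an unadjusted p under 0.05 and DESeq2 called 1, in backgrounds of 0.119% in edgeR and 0.195% in DESeq2. H2-K1 was at 0.513, 1.10, 0.893 and 0.858 CPM with vehicle and 2.90, 3.12, 1.11 and 2.002 with DMXAA (1.47 ± 0.35, edgeR adjusted p = 0.256). Without the library labelled WT DMXAA 3 it was the 1 member called of 7 (1.64 ± 0.32, edgeR adjusted p = 0.0385), in a background of 0.254%. Tap1 had a log2 fold change of 2.02 ± 0.52 (edgeR adjusted p = 0.385) and H2-D1, at 4.93, 4.80, 6.38 and 5.34 CPM with vehicle and 11.9, 10.6, 1.95 and 8.90 with DMXAA, one of 0.64 ± 0.35 (edgeR adjusted p = 0.9997). Microglial markers in ENs summed to 69.6 to 92.3 CPM with WT vehicle and 30.9 to 121 with WT DMXAA. In Ifnar1-/- ENs they were at 25.3 to 34.5 CPM with vehicle and 34.0 to 48.5 with DMXAA. Their part in the EN values of either genotype was not tested. In 5 EN regions edgeR called 0 of 16 member tests in WT, 5 had an unadjusted p under 0.05, and DESeq2 was not run. The background was 0.0518% in CA1, 0.0643% in CA3, 0.13% in the dentate gyrus and 0.0418% and 0.016% in upper and deep cortical layers. Without the library labelled WT DMXAA 3, 4 of 18 member tests in these regions were called, 3 in the dentate gyrus and 1 in CA1, with backgrounds of 0.293% in CA1, 1.61% in CA3, 0.561% in the dentate gyrus, 0.0816% in upper and 0.0236% in deep layers.

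In the dentate gyrus, H2-K1 then had a log2 fold change of 1.83 ± 0.34, H2-D1 of 1.42 ± 0.21 and H2-T23 of 2.07 ± 0.36 (edgeR adjusted p = 0.00913, 0.0010035 and 0.00587). With all libraries H2-K1 and H2-D1 were at 1.60 ± 0.40 and 1.12 ± 0.34 (edgeR adjusted p = 0.343 and 0.833), and H2-T23 did not pass the filter on low counts. Without that library H2-T23 passed through WT DMXAA, at 23, 25 and 9 UMIs against 3, 8, 4 and 5 with WT vehicle, so its call is not separate support. H2-D1 in dentate gyrus ENs was at 3.11, 3.75, 3.22 and 3.72 CPM with WT vehicle and 10.7, 9.99, 1.89 and 7.16 with DMXAA, where the library labelled WT DMXAA 3 was the lowest of all 8. In CA1 the member called without it was H2-D1 (1.38 ± 0.28, edgeR adjusted p = 0.0357), which with all libraries had 1.10 ± 0.38 (edgeR adjusted p = 0.9997).

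Endothelial nuclei were too few for the planned fit, 8 to 49 per library. The summed level was 760.1, 2042, 630.0 and 984 CPM with WT vehicle and 2838, 3888, 1748 and 4388 with DMXAA, which overlap in part. In a fit added after the data were seen, with 5 or more nuclei per library, none of the 4 members tested passed the threshold in WT, and 0.0495% of 2020 genes did. H2-K1 had a log2 fold change of 1.72 ± 0.50, H2-D1 of 1.40 ± 0.49 and B2m of 1.06 ± 0.46 (edgeR adjusted p = 0.43, 0.487 and 0.519), each with an unadjusted p under 0.05, and H2-T23 one of 0.18 ± 0.68 (edgeR adjusted p = 0.999). Without the library labelled WT DMXAA 3, the values were 1.92 ± 0.51, 1.73 ± 0.45, 1.28 ± 0.47 and 0.71 ± 0.61, and H2-Q7, which then passed the filter, had 5.25 ± 1.25. Again edgeR called none (adjusted p = 0.471, 0.471, 0.645, 0.911 and 0.471), in a background of 0.048%, and all but H2-T23 had an unadjusted p under 0.05. DESeq2 was not run on this class.

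In border macrophages the 4 members tested, B2m, H2-D1, H2-K1 and Nlrc5, had log2 fold changes of 0.49 to 1.26 in WT. None was called by edgeR in a background of 0.0802%, 2 had an unadjusted p under 0.05, and DESeq2 was not run there. The library labelled WT DMXAA 3 held 148 nuclei of this class and the other WT DMXAA libraries 28 to 33. Without it the fold changes were 0.91 to 1.52, 3 had an unadjusted p under 0.05 and edgeR again called none, in a background of 0.174%. The summed level with WT DMXAA was 1950.1 ± 886 CPM with it and 2321 ± 593 without it.

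Fibroblasts, the cells of the meninges and vessel sheaths, had WT fold changes with DMXAA that depended on the same library. With all libraries edgeR called 0 of 4 members and 0% of genes in WT, 3 members had an unadjusted p under 0.05, and DESeq2 was not run on this class. When it was left out, 3 of 5 were called, B2m (1.38 ± 0.26), H2-K1 (1.58 ± 0.29) and H2-D1 (1.68 ± 0.21), in a background of 0.535% (edgeR adjusted p = 0.00899, 0.00869 and 0.000245). H2-D1 was at 37.5, 45.3, 32.3 and 40.6 CPM with WT vehicle and 122, 131, 22.1 and 104 with DMXAA, that library again being the lowest of the 8. In inhibitory neurons edgeR called 0 of 3 members in WT and 0% of genes with and without it, 0 and 1 with an unadjusted p under 0.05. In choroid plexus, where that library had too few nuclei and was not in the fit, 0 of 2 were called by edgeR in a background of 0.506%, and 1 had an unadjusted p under 0.05. DESeq2 was run on neither class.

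The share of nuclei with a member UMI was compared as well. Each nucleus was thinned to 1000 UMIs, since the median depth was 1576 to 2131 UMIs in microglia and 7468 to 10297 in ENs. A UMI of any member was then found in 28.4% ± 4.83 (SD, n = 4) of WT vehicle microglia and 66.02% ± 18.8 with DMXAA. Of the treated libraries, the one labelled WT DMXAA 3 was at 38.2% and the other 3 at 71.9% to 79.7%, all above the 22.01% to 33.4% of vehicle. In Ifnar1-/- the share was 13.7% ± 3.39 with vehicle and 16.8% ± 2.89 with DMXAA. Without thinning these shares were 43.6% ± 4.30, 83.7% ± 16.3, 23.9% ± 6.78 and 27.2% ± 4.17.

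Nlrc5 was found in 0.692% ± 0.315 of thinned WT vehicle microglia and 11.4% ± 5.10 with DMXAA, and in 0.0237% ± 0.0159 and 0.0714% ± 0.0707 of ENs. In ENs, a UMI of any member was found in 1.58% ± 0.379 of thinned WT vehicle nuclei and 2.75% ± 1.14 with DMXAA. Astrocytes went from 6.17% ± 0.769 to 16.6% ± 8.11 in WT and from 2.86% ± 0.700 to 4.40% ± 0.581 in Ifnar1-/-, differences of 10.4 and 1.53 percentage points. These depended on the depth used, since the WT difference was 22.7 points without thinning and the Ifnar1-/- difference 0.086 points when thinned to 500 UMIs. Without the library labelled WT DMXAA 3, the WT DMXAA share was 75.3% ± 4.02 in microglia, 20.03% ± 5.12 in astrocytes and 3.23% ± 0.736 in ENs. Over 40 exact permutation tests of the shares of H2-K1, H2-D1, B2m and Nlrc5 in 5 classes, the smallest p was 0.0286 and its adjusted value 0.143, and none passed. This p was reached in WT and also in Ifnar1-/-, there by H2-D1 in astrocytes and H2-K1 in OPCs, both higher with DMXAA. Without that library the smallest p was again 0.0286, the smallest that 3 against 4 libraries allow, and its adjusted value 0.0672. With this floor, a test could pass the adjustment only if most of the 40 were at the floor, so these adjusted values decide nothing. Thinning left out 20 of 1349 WT vehicle, 31 of 1514 WT DMXAA, 67 of 1001 Ifnar1-/- vehicle and 42 of 1096 Ifnar1-/- DMXAA microglia.

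The shares that classes gave of all class I UMIs are stated without a test. In WT, microglia gave 15.8% ± 3.17 of the members' UMIs with vehicle and 27.4% ± 2.95 with DMXAA, and ENs 32.1% ± 2.53 and 19.3% ± 2.67. For Nlrc5 alone the microglial share was 7.94% ± 0.42 with vehicle and 37.2% ± 3.62 with DMXAA. Without the library labelled WT DMXAA 3, the shares with WT DMXAA were 28.5% ± 2.39 in microglia and 18.8% ± 3.01 in ENs, and 35.4% ± 0.935 for Nlrc5 in microglia. In Ifnar1-/- the shares of all members were 12.6% ± 1.65 and 13.8% ± 2.43 in microglia and 23.8% ± 3.04 and 27.7% ± 4.42 in ENs.

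Vehicle-treated mice of the 2 genotypes also differed. Over all nuclei, 7 of 10 members were lower in Ifnar1-/- vehicle than in WT vehicle libraries, Psmb8 (-1.71 ± 0.46), H2-T23 (-1.70 ± 0.40), H2-Q7 (-1.56 ± 0.57), H2-D1 (-1.45 ± 0.30), B2m (-0.75 ± 0.16), H2-K1 (-0.74 ± 0.20) and H2-T22 (-0.59 ± 0.20), on the log2 scale. This stands against a background of 48.7% of all genes called between these groups, with a median of -0.06. Of all 20144 genes, 5320 were called lower, the direction of the 7 members, and 4485 higher. The count was not tested against the share called lower, and alone it does not set the members apart. Malat1 differed between the vehicle groups too, at 54081 to 71798 CPM in WT vehicle and 12698 to 20304 in Ifnar1-/- vehicle libraries. It did not follow the genotype label throughout, since the library labelled WT DMXAA 3 was at 24271 CPM. Over all nuclei, microglial markers summed to 262 to 296 CPM in WT vehicle and 182 to 202 in Ifnar1-/- vehicle libraries. Endothelial markers were at 33.2 to 74.6 and 72.0 to 113, and lymphocyte and border macrophage markers overlapped. The part of Malat1 and of these markers in the difference was not tested. H2-D1 was at 7.25, 9.41, 9.14 and 8.55 CPM in WT vehicle and 2.48, 1.65, 2.81 and 3.004 in Ifnar1-/- vehicle libraries, without overlap. Nlrc5 (-0.36 ± 0.46), H2-Q4 (-0.27 ± 0.29) and Tap1 (0.03 ± 0.29) were not called (edgeR adjusted p = 0.534, 0.466 and 0.945).

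In microglia 2 of 9 members were called lower in Ifnar1-/- vehicle, H2-D1 (-1.86 ± 0.55, edgeR adjusted p = 0.0327) and Nlrc5 (edgeR adjusted p = 0.0467), in a background of 15.4%. Of all 9187 genes there, 665 were called lower and 748 higher. H2-D1 was at 46.8 to 70.8 CPM in WT vehicle and 8.18 to 24.6 in Ifnar1-/- vehicle microglia. Nlrc5 rests on 16 UMIs against 1, a ratio of 11.95 with an exact 95% interval of 1.86 to 501 that covers counting error only. With single libraries left out, this count ran from 0 to 6, the 6 without the library labelled WT DMXAA 3, where 32.7% of genes were called. Without the filter on low counts, edgeR called 4 members and 7.27% of genes, and DESeq2 called 1 and 5.91%. That library had H2-D1 between the 2 vehicle groups, at 46.6 CPM in microglia and 6.16 in all nuclei. Age differed with genotype, and the effects of both cannot be told apart. The library labelled WT DMXAA 3 lay at 0.95 on the scale between the vehicle groups over all nuclei. A difference between libraries other than genotype or age was therefore not separated either.

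Of 43 other genes of the class I route that the files list, 33 were tested in all nuclei and 19 in microglia. With DMXAA in WT, edgeR called 3 of the 33 higher in all nuclei and 2 of the 19 in microglia, and none lower, beside 0.516% and 1.75% of all genes in either direction. None was called in Ifnar1-/- in either, where 1 of 33 and 0 of 19 had an unadjusted p under 0.05. The median log2 fold change in WT was 0.14 in all nuclei and 0.15 in microglia. Those called in WT microglia were Psmb9, an immunoproteasome subunit next to Tap1 (1.19 ± 0.29, edgeR adjusted p = 0.048), and H2-T24, a class I-like gene (1.43 ± 0.32, edgeR adjusted p = 0.0271). Those called over all nuclei were Psmb9, Tapbp, which helps load peptides, and H2-Q6, named there after their values were seen. Most of the route was not called, Tap2, the partner of Tap1, among them (0.50 ± 0.16 in all nuclei, edgeR adjusted p = 0.453).

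H2-Q6 and H2-Q7 are near-identical copies in the Qa-2 region and counted reads can be shared between them. In WT microglia H2-Q6 was at 0, 0, 0 and 1.39 CPM with vehicle and 51.7, 18.2, 12.99 and 47.8 with DMXAA, beside 1.54, 3.12, 0 and 1.39 and 44.9, 22.7, 9.74 and 33.2 for H2-Q7. Both were highest in the same treated libraries, 1 and 4, and both had no UMI in Ifnar1-/- microglia.

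The genes outside these lists whose microglial levels were most like the members' were ranked by Pearson's r over the 16 libraries, between their log2 CPM and the mean of the 9 members, among 9158 genes. They were Apobec1 (r = 0.96), Trim30d (0.96), Trim12a (0.96), Ifi35 (0.96) and Stx16 (0.95). The 16 points fall into groups by genotype and treatment and share depth and library, so r describes this grouping. Apobec1, an RNA-editing deaminase, was at 132 to 171 CPM with WT vehicle and at 357, 283, 148 and 243 with WT DMXAA, the same library being the low one.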

How the data were processed

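Nuclei of 16 hippocampi were profiled with 10x 3′ chemistry. The authors deposited raw UMI counts, as whole numbers, for every gene in each barcode called a cell by Cell Ranger. File headers name Cell Ranger 6.1.2, the submitters' processing notes Cell Ranger 3.1.0 and Seurat 3.0, and reads were aligned to mm10 with introns counted. Files held 7869 to 12457 barcodes and 66059561 to 93228638 UMIs per library, 155084 barcodes in all.

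Nuclei with 200 to 4000 genes and at most 5% mitochondrial UMIs were kept and simulated-doublet neighbours removed at 0.8% per 1000 barcodes, leaving 111068. Leiden clustering (Python 3.11.15 with leidenalg 0.10.2 and igraph 0.11.9, resolution 0.5, 30 components, 2000 genes) was named from marker lists, with naming thresholds set after the clusters were seen. Of the nuclei, 13325 stayed unnamed. Class names are rebuilt, so values can differ from the study's for that reason.

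Counts were summed per library and class (20 or more nuclei, 3 or more libraries per group) and fitted in 1 model of 4 groups by the quasi-likelihood test of edgeR 4.0.16 (R 4.3.3), 2-sided, after filterByExpr and TMM scaling, adjusted by Benjamini-Hochberg over all genes of a class and contrast. The study tested single nuclei instead. Calls were made at adjusted p under 0.05 where the log2 fold change exceeded 0.1 either way. Backgrounds are shares of genes called by this rule. An unadjusted p under 0.05 was commoner, for DMXAA in WT at 1063 of 20144 genes in all nuclei and 904 of 9187 in microglia. It was reached there by 682 of 12146 genes in oligodendrocytes, 537 of 9888 in OPCs and 810 of 17588 in ENs. Scripts were tested on simulated data. DESeq2 1.42.0, other filters and scalings, and leaving out each library were alternatives. Replicates were separate animals. Their numbers name libraries in accession order and pair none. Members under the filter and shares of nuclei were compared with exact permutation tests in SciPy 1.17.1 (70 arrangements, smallest p 0.0286). Summed levels of members were given without a test.

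The members and lists were chosen with earlier results of these data known, and promoter motifs after the sequences were seen. All members were named. Of other pathway genes, those called in WT microglia or ENs were named (1 item is not reported here), and the 5 genes most like the members by correlation. Positions come from GENCODE M21 on GRCm38, and promoters from RefSeq on GRCm38.p6. Intervals cover counting error only.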

Additional observations from a re-analysis of the deposited data

Results flagged for a closer look

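In 8 of 78 groups of 4 libraries checked, 1 library lay far from the other 3 by Dixon's gap ratio, and chance marks about 1 in 20 groups. Of these 8, 5 were low values in the library labelled WT DMXAA 3. H2-K1 was at 8.28 CPM in all nuclei (21.5 to 23.7 in the other 3) and at 105 in microglia (342 to 376). H2-D1 was at 6.16 CPM in all nuclei (26.9 to 29.4), at 46.6 in microglia (334 to 371) and at 5.04 in astrocytes, below the other 3. The other 3 concerned Nlrc5 at low counts, at 0.583 CPM in all nuclei of WT vehicle replicate 4, below its group, at 9.21 CPM in astrocytes of WT vehicle replicate 1, above its group, and at 2.05 CPM (1 UMI) in microglia of Ifnar1-/- vehicle replicate 2, where the others had none.

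H2-K1 in microglia also stood out because its DMXAA effect differed between genotypes, by 2.43 ± 0.46 log2 units (edgeR interaction, adjusted p = 0.0405). All 4 treated WT libraries lay above the vehicle range. The call was lost when any 1 of 14 of the 16 libraries was left out, the exceptions being those labelled WT DMXAA 3 and 4, while the difference stayed between 2.28 and 2.72.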

How the results depend on the processing

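No member value called with all libraries changed direction under an alternative, and no value of DMXAA in WT did, while 67 of 3279 values changed sign, none of them called. In ENs the interaction of H2-D1 went from -0.16 to 0.15 and that of H2-T23 from -0.27 to 0.03 log2 units without the library labelled WT DMXAA 3. With DMXAA in Ifnar1-/-, Tap1 in all nuclei went from 0.01 to -0.00433 with relative log expression size factors, -0.00450 with DESeq2 and -0.00161 with 500 genes per nucleus, and H2-T22 from -0.08 to 0.0257 with all barcodes. Leaving out 1 library gave -0.18 to 0.19 for Tap1 and -0.56 to 0.0933 for Nlrc5 in all nuclei, -0.13 to 0.29 for B2m and -0.10 to 0.13 for H2-K1 in microglia, and -0.23 to 0.20 for B2m and -0.26 to 0.41 for Nlrc5 in astrocytes there, and between vehicle groups -0.15 to 0.21 for Tap1 in all nuclei and -0.26 to 0.19 for H2-T22 in microglia. Counts of members called within Ifnar1-/- stayed at 0 throughout. The 37 member values called with all libraries were compared with alternatives 770 times and lost the call in 137, and the 123 not called were compared 2509 times and gained a call in 42, of which 24 were without the library labelled WT DMXAA 3. Most of the 37 were of vehicle against vehicle, 7 in all nuclei, 5 in ENs, 3 in astrocytes, 3 in oligodendrocytes and 2 in microglia. These totals therefore do not describe the DMXAA calls alone. With the libraries of 1 genotype alone, WT calls were 0 in all nuclei (7 with all libraries), 3 in microglia (6) and 0 in astrocytes (3). DESeq2 gave 5 in WT astrocytes, 1 in WT ENs, 5 for the interaction in all nuclei (0 with edgeR) and 1 for vehicle against vehicle in microglia (2). That interaction gave 1 with relative log expression size factors and 1 with all barcodes. Without the filter on low counts, WT OPCs gave 4 (0) and vehicle against vehicle in microglia 4. The difference in the share of astrocytes with a member UMI, DMXAA minus vehicle, was 22.7 percentage points in WT without thinning (10.4 thinned) and 0.086 in Ifnar1-/- thinned to 500 UMIs (1.53). The cause was not tested in these cases.

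Leaving out 1 library at a time, WT calls ranged from 4 to 10 in all nuclei, 5 to 8 in microglia, 1 to 8 in astrocytes, 0 to 1 in ENs, 0 to 5 in OPCs and 0 to 5 in oligodendrocytes, with the highest values without the library labelled WT DMXAA 3. In several classes, members then passed the filter on low counts through WT DMXAA alone, so counts with and without that library cover unlike sets. Without that library, a setting chosen after seeing the data for these classes, WT calls were 3 in dentate gyrus ENs, 1 in CA1 ENs and 3 in fibroblasts (0 with it). The difference in summed level, DMXAA minus vehicle, ranged in WT from 41.8 to 69.3 CPM in all nuclei, 766 to 1153 in microglia and 79.4 to 152 in astrocytes, and in Ifnar1-/- from 2.40 to 4.79, 21.9 to 53.3 and 4.46 to 8.35. The difference in share ranged from 33.0 to 46.9 percentage points in WT microglia and 7.28 to 13.9 in WT astrocytes, and in Ifnar1-/- from 1.97 to 4.62 and 1.23 to 1.72. Calls of the interaction ranged from 0 to 3 in all nuclei and 0 to 2 in microglia, and of vehicle against vehicle from 5 to 7 in all nuclei and 0 to 6 in microglia. No paired analysis was possible because replicate numbers are accession order within a group. In WT vehicle microglia, counts of 2 to 5 UMIs per library for Nlrc5 and 0 to 2 for H2-Q7 limit their fold changes.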
